A study of Mus musculus with 12 samples.

Results

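Complement is a cascade of plasma and tissue proteases that tags surfaces for removal, and 9 of its genes were followed in mesenchymal cells of the mouse uterus. The genes were taken by name from the deposited count table: the proteases C1ra, C1s1, C2 and Cfd, the central components C3 and C4b, and the inhibitors Serping1, Cd55 and Cd59a. All 9 were found among the 47729 genes of the table. The cells came from uteri of healthy cycling female Pdgfrb-BAC-eGFP mice, in which a bacterial artificial chromosome with the Pdgfrb locus drives green fluorescent protein (GFP), so that GFP reports the transgene and not the protein PDGFRB itself. After enzymatic digestion and flow sorting, 6 GFPtotal libraries (titled Naive, all GFP-positive cells) and 6 GFPlow libraries (titled Stromal, labelled GFPdim) were sequenced, from 12 mice for the series as a whole. GFPtotal cells hold GFP-high perivascular cells together with GFP-low stromal fibroblasts, in an unstated proportion, and GFPlow cells hold the fibroblasts alone. The labels state neither age nor cycle stage. The comparison asks which transcripts are richer in the GFP-high cells, and since those cells were never sequenced alone, a change in the share of a cell type and a change in RNA per cell cannot be told apart.

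In the classical pathway, C1q bound to a surface activates the serine proteases C1r and C1s, which cleave C4 and C2 into the convertase that splits C3. The alternative pathway builds its own C3 convertase from factor B after cleavage by factor D (adipsin), the product of Cfd. C1 inhibitor (Serping1) blocks C1r and C1s, decay-accelerating factor (Cd55) breaks up convertases on host cells, and CD59 stops the assembly of the membrane attack complex. Liver is the main source of the plasma components, and fibroblasts are known to make several of them, C1r, C1s, C3 and C1 inhibitor among them. In the mouse, several components have a second gene copy, such as C1rb beside C1ra and C4a beside C4b.

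Total counts were 12631266 to 18425596 per library, of which mitochondrial genes took 32.4% to 49.0%. Levels are given as CPM, counts per 1000000 counts of the library after scaling by trimmed means of M-values. The 13 pericyte markers matched the sort, summing to 104 to 151 CPM over the GFPlow libraries against 1079 to 1855 CPM over GFPtotal, and the smooth muscle markers to 27.8 to 45.3 against 155 to 357 CPM. Pdgfrb itself averaged 114 ± 36 and 65.1 ± 15 CPM (GFPtotal, then GFPlow, SD, n = 6 each; log2 fold change 0.81, edgeR adjusted p = 0.0305). Fibroblast markers did not follow the sort: they summed to 15642 to 23591 CPM over GFPlow and to 23720 to 40296 CPM over GFPtotal. Of the 10 fibroblast markers, 8 had a log2 fold change above 0 and 2 below 0, and 1 was called, as higher in GFPtotal. The cause was not tested. GFPtotal 3–5 stood apart from the other 9 libraries on the first principal component of log2 CPM (34.0% of the variance), at 102 to 107, where GFPtotal 1, 2, 6 lay at −3.82 to 6.66 and GFPlow at −64.6 to −31.1. The counts of GFPlow 6 carry another library name (N8) in their file header than in their title (S6). Its pericyte sum was 150.4 CPM, inside the GFPlow range. Results are therefore given with all 12 libraries and, where they turn on these libraries, without GFPtotal 3–5 or without GFPlow 6.

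Of the 9 genes, 8 passed the filter on low counts and were tested (edgeR's quasi-likelihood test, GFPtotal against GFPlow, Benjamini-Hochberg adjustment over all 14523 genes tested, threshold 0.05). C1ra and Serping1, an activating protease and the inhibitor of that protease, rose in GFPtotal, with log2 fold changes of 1.19 and 1.18. C1s1, C2, C4b, C3, Cd55 and Cd59a did not pass the test. Among all genes tested, 5.41% were called, 4.55% as higher and 0.854% as lower in GFPtotal. Of the 8, 0 were called lower by edgeR, DESeq2 or limma-voom, and 0 were lower at an unadjusted p below 0.05. Higher at an unadjusted p below 0.05 were 6 by edgeR, 6 by DESeq2 and 5 by limma-voom. After adjustment 2, 4 and 2 of the 8 remained. The share of all genes at an unadjusted p below 0.05 was not counted. The median log2 fold change of the 8 tested genes was 1.18, against −0.0006 over all genes tested. With GFPtotal 3–5 left out, 0 of the 8 passed edgeR's quasi-likelihood test, and 1 (Serping1) had an unadjusted p below 0.05. In that fit 1.88% of all genes were called, 1.56% as higher and 0.318% as lower, and the median of the 8 was 0.0006 against −0.06 over all genes. No other tool was run without these libraries.

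To show what lies upstream of the genes whose levels are described, the 250 bases before the transcription start are printed for C1s1 and C3, which were high in GFPtotal 3–5, for Cd55, which was low there, and for Cd59a, the only one of the 4 with a match to a searched motif. The sequences are RefSeq's on GRCm38.p6, 5′ to 3′ on the gene's strand, with matches in capitals. RefSeq gives C1s1 another start, whose window (chr6:124542322-124542571) is not printed and held 0 matches.

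C1s1, chr6:124542360-124542609, minus strand: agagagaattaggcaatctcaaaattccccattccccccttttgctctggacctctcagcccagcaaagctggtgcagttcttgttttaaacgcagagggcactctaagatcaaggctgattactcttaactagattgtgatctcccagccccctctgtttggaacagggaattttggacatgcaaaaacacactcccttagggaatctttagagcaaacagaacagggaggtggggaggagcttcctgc
C3, chr17:57228137-57228386, minus strand: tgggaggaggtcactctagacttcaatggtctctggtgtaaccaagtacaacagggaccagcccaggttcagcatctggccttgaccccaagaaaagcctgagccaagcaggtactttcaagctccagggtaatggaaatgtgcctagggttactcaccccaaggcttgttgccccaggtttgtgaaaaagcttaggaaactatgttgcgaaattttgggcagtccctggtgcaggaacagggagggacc
Cd55, chr1:130462745-130462994, minus strand: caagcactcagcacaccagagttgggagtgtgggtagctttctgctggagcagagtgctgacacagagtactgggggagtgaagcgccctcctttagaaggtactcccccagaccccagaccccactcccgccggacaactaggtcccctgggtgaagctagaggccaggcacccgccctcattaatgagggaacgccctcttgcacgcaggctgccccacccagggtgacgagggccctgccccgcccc
Cd59a, chr2:104095551-104095800, plus strand: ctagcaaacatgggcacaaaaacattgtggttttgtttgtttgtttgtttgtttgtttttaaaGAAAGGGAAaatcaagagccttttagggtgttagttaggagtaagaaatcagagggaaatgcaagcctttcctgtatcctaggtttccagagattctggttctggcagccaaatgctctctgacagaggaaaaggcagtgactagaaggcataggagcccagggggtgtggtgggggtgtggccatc

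Both strands were searched for 6 motifs: TTCNNNGAA (STAT factors), GAAANNGAA (core of the interferon-response element), GGGANTTTC (NF-kB core), TTGCNNCAA (C/EBP factors), TATAAA and CCAAT. A match on one strand can overlap a match to another motif. In the same 250 bases of 32851 promoters they were found in 7.02%, 7.13%, 0.941%, 1.74%, 12.4% and 33.8%. Of the 6 genes with a promoter in the RefSeq table (the 4 printed, C1ra and Cfd), Cd59a alone held a match, an interferon-response core at −187 to −179 relative to the start. The absence of these letters in the other windows says nothing about the factors. The window of C1ra is not printed, because RefSeq's start lies inside the gene as counted. C2, C4b and Serping1 have no entry in that table.

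The classical proteases C1ra and C1s1 lie 6901 bases apart on chromosome 6, on opposite strands (C1ra, ENSMUSG00000055172, 124512405 to 124523443; C1s1, ENSMUSG00000038521, 124530345 to 124542359, GRCm38). C1ra stood at 49.2 to 63.9 CPM in GFPtotal 3–5 and at 21.7 to 24.8 CPM in GFPtotal 1, 2, 6, and ranged from 12.0 over a median of 16.8 to 22.3 CPM in GFPlow. GFPtotal 1, 2, 6 thus overlapped the top of the GFPlow range, and GFPtotal 3–5 lay clear of it. The means were 39.7 ± 18.3 and 17.4 ± 4.20 CPM (SD, n = 6 each), a log2 fold change of 1.19 (SE 0.29, edgeR adjusted p = 0.0232). Without GFPtotal 3–5 it was 0.42 (SE 0.27, adjusted p = 0.603). Leaving out any one of GFPtotal 3, GFPtotal 4, GFPtotal 5, GFPlow 3 and GFPlow 4 also ended the call (adjusted p = 0.0547 to 0.0808), as did scaling by total counts alone (0.0639). Without GFPlow 6 C1ra differed by 1.27 (adjusted p = 0.0304).

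C1s1, which encodes the protease that C1r activates, was the more abundant of the pair. It stood at 218, 216 and 211 CPM in GFPtotal 1, 2, 6 and at 412, 503 and 459 CPM in GFPtotal 3–5. GFPlow ran from 157 to 257 CPM with a median of 185, so that GFPtotal 1, 2, 6 fell inside it. The group means of 337 ± 136 and 196 ± 38.7 CPM gave a log2 fold change of 0.78 (SE 0.23) that did not pass the test (edgeR adjusted p = 0.0641). It passed when one of GFPtotal 1, GFPtotal 2 and GFPtotal 6 was left out (adjusted p = 0.0328 to 0.0339) and with DESeq2 (0.0423), and without GFPtotal 3–5 it was 0.11 (SE 0.16, adjusted p = 0.866). The antisense gene Gm16567 shares 18.4% of the exonic bases of C1s1, and strand was not used in counting. By the commands in the file headers a fragment in several genes was not assigned to any. Reads from these bases are therefore missing from the level of C1s1.

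C1ra and C1s1 have near-copies in the mouse genome. Of the 50-base windows in the annotated transcripts of C1ra, 48% also occur in transcripts of C1rb, and 21.8% of those of C1s1 occur in C1s2. Reads from such windows may not be placed uniquely, depending on their length and on their mates. The authors required a mapping quality of at least 10, so levels of both genes are uncertain. C1rb itself had 4 counts over the 12 libraries. C1s2, of which another gene model shares 78.3% of the exonic bases, had at most 4.54 CPM. How many reads were lost was not tested.

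The convertase components C2 and C4b lie in the class III region of the major histocompatibility complex on chromosome 17 (C2, ENSMUSG00000024371, 34862604 to 34898265; C4b, ENSMUSG00000073418, 34728380 to 34743882). C4b was low outside GFPtotal 3–5, which held 20.2, 19.0 and 26.7 CPM. GFPtotal 1, 2, 6 had 2.19 to 4.36 CPM, and GFPlow 0.565 to 11.2 CPM with a median of 1.96. One GFPlow library, GFPlow 5 at 11.2 CPM, lay between the low and the high libraries, and the next highest of its group was at 2.15 CPM. The log2 fold change of C4b was 2.02 (SE 0.80, edgeR adjusted p = 0.169) at 12.5 ± 10.8 against 3.11 ± 4.02 CPM (SD, n = 6 each). Without GFPlow 5 it was 3.06 and passed the test (adjusted p = 0.0215), it also passed with DESeq2 (0.0446), and without GFPtotal 3–5 it was −0.06 (adjusted p = 0.986). Windows of 50 bases shared with C4a made up 34.6% of C4b's. C4a had at most 2.40 CPM in any library.

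C2, the serine protease of the classical convertase, was low except in the same libraries. It had 47, 79 and 106 counts in GFPtotal 3–5 (3.36 to 7.05 CPM), 10, 10 and 1 in GFPtotal 1, 2, 6, and 1 to 19 in GFPlow (0.0629 to 1.20 CPM). The difference of 2.08 (SE 0.84) did not pass the test (edgeR adjusted p = 0.169) and was −0.27 without GFPtotal 3–5 (adjusted p = 0.963). Its counts cover part of the gene: 46.9% of its exonic bases are shared with other annotated genes, mostly with Gm20547, a gene model that runs through C2 and the neighbouring Cfb. By the commands in the file headers a fragment in several genes was not assigned to any, and Gm20547 had 0 counts in 12 of 12 libraries. Reads from the shared bases are therefore missing from the level of C2.

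C3, whose cleavage all pathways of complement share, was the most abundant of the central components (ENSMUSG00000024164, chromosome 17, 57203970 to 57228136, GRCm38). It reached 158, 188 and 159 CPM in GFPtotal 3–5, against 29.6, 41.4 and 30.3 CPM in GFPtotal 1, 2, 6. GFPlow ran from 14.2 to 97.5 CPM with a median of 24.1, and its highest library was GFPlow 3, with the next at 32.6 CPM. GFPtotal 1, 2, 6 overlapped GFPlow. The log2 fold change was 1.53 (SE 0.63, edgeR adjusted p = 0.196), at 101 ± 74.7 and 35.1 ± 31.2 CPM (SD, n = 6 each). Without GFPlow 3 it was 2.16 (adjusted p = 0.0492), and without GFPtotal 3–5 it was −0.08 (SE 0.49, adjusted p = 0.973). No 50-base window of C3 was found in another gene's transcripts, and no other annotated gene shares its exonic bases.

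Cfd, the factor D of the alternative pathway and a gene known from fat cells as adipsin, was nearly without counts. It had 0 counts in GFPtotal, where 3 counts over the group would be 0.0367 CPM, and 3 counts in GFPlow (1 in GFPlow 1 and 2 in GFPlow 4). It was not tested and no fold is given. Its substrate gene Cfb had 46 counts in GFPtotal and 66 in GFPlow, in 4 of 12 libraries, and 79.5% of its exonic bases are shared with Gm20547, so the counted part is small. The fat cell genes Adipoq, Cidec and Cidea were at 0 counts in all libraries, and the 8 adipocyte markers summed to 1.05 to 7.71 CPM.

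**Figure D1:**
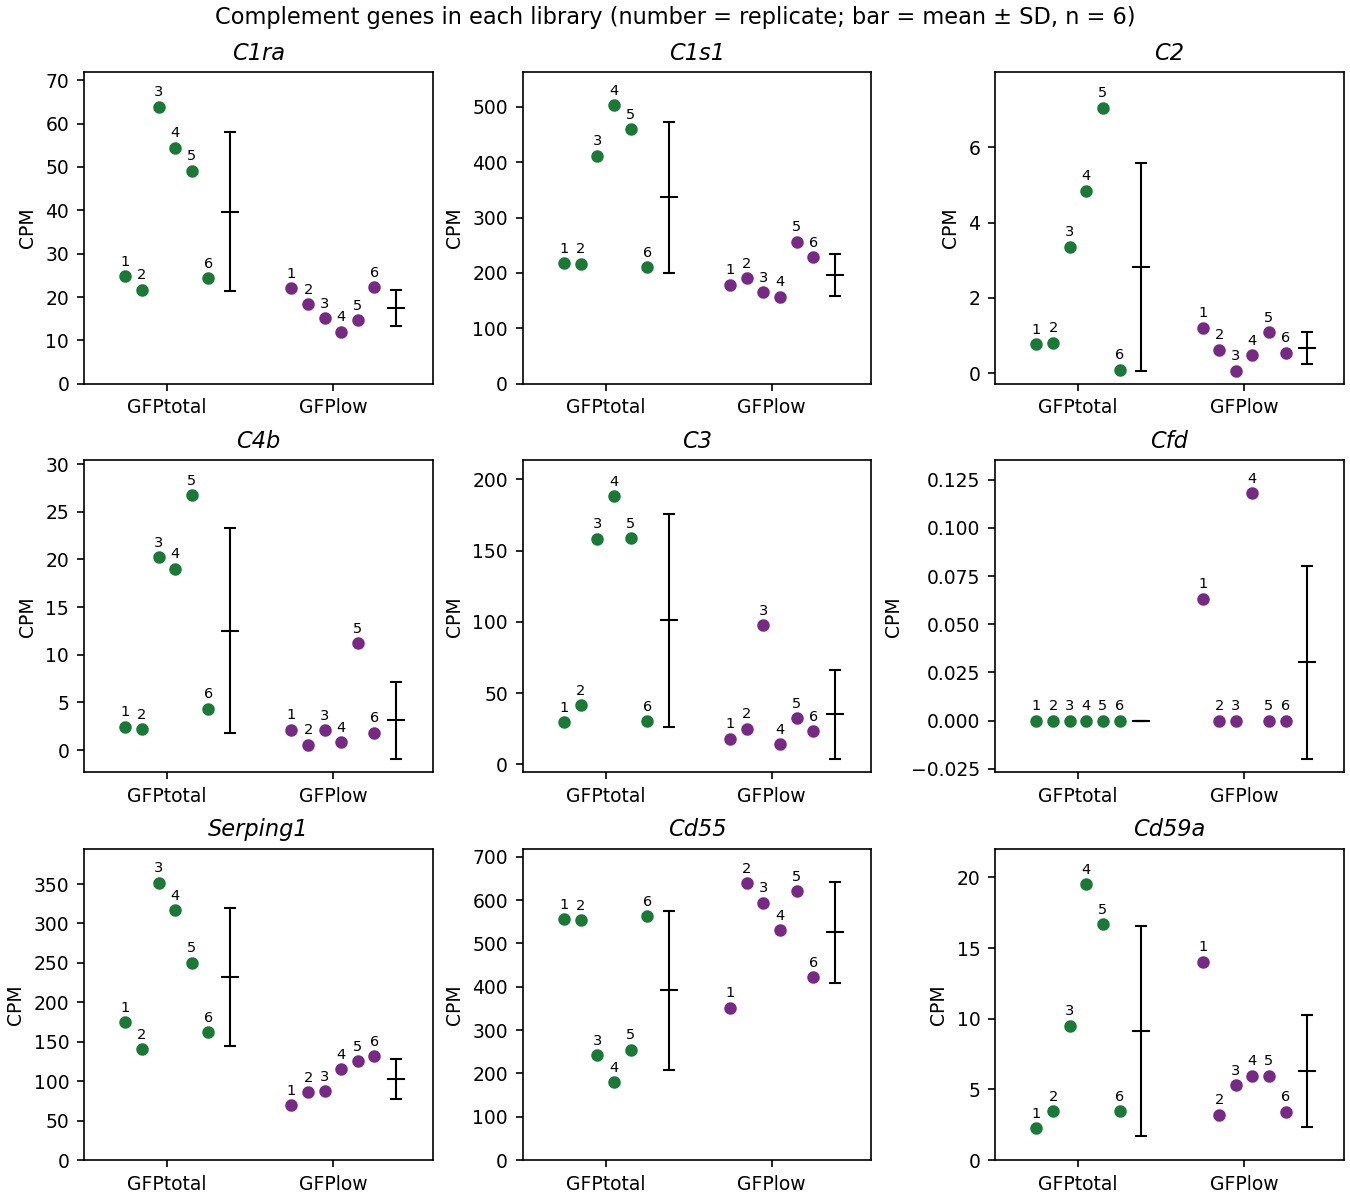
CPM of each gene (vertical axis, linear) in the 6 GFPtotal and 6 GFPlow libraries, numbered by replicate, with mean and SD in black. GFPtotal 3–5 are the highest 3 of 12 libraries for C1ra, C1s1, C2, C4b, C3 and Serping1 and the lowest 3 for Cd55.

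Among the inhibitors, Serping1 was the only one of the 8 tested genes whose groups did not overlap. Of all genes tested 3.66% did not overlap, 2.86% with GFPtotal above and 0.806% with GFPtotal below. Serping1 (ENSMUSG00000023224, chromosome 2, 84765387 to 84775444, GRCm38) stood at 250.2 to 352 CPM in GFPtotal 3–5 and at 140.3 to 175 CPM in GFPtotal 1, 2, 6. The GFPlow libraries ran from 69.3 to 132 CPM with a median of 101. Both parts of GFPtotal lay above every GFPlow library on this scale. Relative to total counts the groups overlapped, with GFPtotal 2 and GFPtotal 6 at 116 and 133 per 1000000 counts, below GFPlow 6 at 140.02. The means of 233 ± 87.6 and 103 ± 25.1 CPM (SD, n = 6 each) gave a log2 fold change of 1.18 (SE 0.24, edgeR adjusted p = 0.00663). Without GFPtotal 3–5 it was 0.61 (SE 0.19) and not called (adjusted p = 0.161). It was called under each of the other 18 settings tried, at 0.99 to 1.29, and without GFPlow 6 it was 1.26 (adjusted p = 0.00907).

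Cd55 ran the other way (ENSMUSG00000026399, chromosome 1, 130439027 to 130462744, GRCm38). This membrane inhibitor stood at 243, 180 and 255 CPM in GFPtotal 3–5, below the other 9 libraries. GFPtotal 1, 2, 6 had 556, 553 and 563 CPM, in the middle of the GFPlow range of 351 to 639 CPM, whose median was 562. The group means of 392 ± 183 and 526 ± 116 CPM overlapped, with a log2 fold change of −0.43 (SE 0.28, edgeR adjusted p = 0.441). Without GFPtotal 3–5 it was 0.06 (SE 0.17, adjusted p = 0.940).

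Cd59a (ENSMUSG00000032679, chromosome 2, 104095801 to 104115354, GRCm38), which encodes a lipid-anchored inhibitor of the membrane attack complex, was low and differed within both groups. It had 9.51, 19.5 and 16.7 CPM in GFPtotal 3–5, whereas GFPtotal 1, 2, 6 held 2.24 to 3.48 CPM. GFPlow ran from 3.22 to 14 CPM with a median of 5.62, and its highest library was GFPlow 1. GFPtotal libraries thus lay on both sides of most GFPlow libraries. The difference of 0.54 (SE 0.53, edgeR adjusted p = 0.636) became −1.06 (SE 0.54, adjusted p = 0.468) without GFPtotal 3–5.

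**Figure D2:**
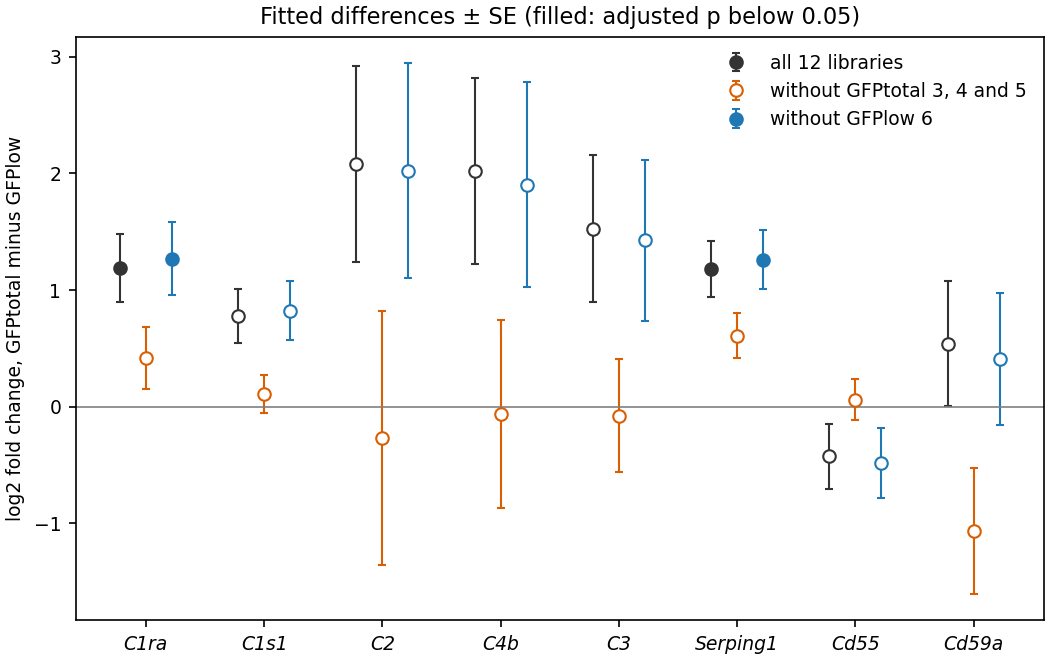
Fitted log2 fold changes, GFPtotal minus GFPlow, with SE, for the 8 tested genes, with all libraries, without GFPtotal 3–5 and without GFPlow 6. Filled points passed the test. C1ra and Serping1 are filled with all libraries and open without GFPtotal 3–5.

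GFPtotal split the same way for most of these genes. In GFPtotal 3–5, 6 of them lay above the other 9 libraries, which 8.08% of all genes tested did, and 1 (Cd55) lay below them, which 7.52% did. With Cd59a, 7 of the 8 lay higher in each of GFPtotal 3–5 than in any of GFPtotal 1, 2, 6, against 16.7% of all genes. Deviations from the group mean of log2 CPM over the 12 libraries had Pearson correlations of 0.446 to 0.843 in the 15 pairs of C1ra, C1s1, C2, C4b, C3 and Serping1, highest for C1s1 with C4b. The correlations of Cd55 with the other 7 were −0.892 to −0.594. All points share these libraries and their 3-library split, so the values describe that split and not independent samples.

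The search for genes with similar deviations covered 6536 genes whose log2 CPM averaged 3 or more. It left out the members, mitochondrial genes, genes without a symbol and symbols of predicted genes, clones or pseudogenes. The most similar genes are named for each tested member. For Serping1 they were Adhfe1 (r = 0.974 over 12 libraries) and the phospholipase gene Pla1a (0.931), for C1ra the matricellular gene Thbs2 (0.931) and the transcription factor gene Etv1 (0.926), and for C1s1 the zinc finger gene Zfp503 (0.964) and Aspg (0.961). For C3 they were Asap2 (0.918) and Ankrd44 (0.907), for C4b Slc25a27 (0.945) and Depdc5 (0.935), and for C2 Tmpo (0.948) and Wdr78 (0.912). Cd55 was most like the DNA repair gene Rad18 (0.989) and the transcription factor gene Zeb2 (0.973); Zeb2, like Cd55, was lower in GFPtotal 3–5 (797 to 1109 CPM) than in GFPtotal 1, 2, 6 (1528 to 1663 CPM). Cd59a was most like the class I gene H2-Q7 (0.935) and Ank2 (0.930).

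Other measures moved with the same 3 libraries. The interferon list was chosen because earlier results of these data showed its genes to differ between libraries. Its values are a description and not a separate finding. The 13 interferon genes listed (Ifit1 and Isg15 among them) summed to 1076 to 1145 CPM in GFPtotal 3–5. Their sum was 145 to 208 CPM for GFPtotal 1, 2, 6 and 67.5 to 96.3 CPM for GFPlow. In the same order, fibroblast markers summed to 23720 to 27639, 37866 to 40296 and 15642 to 23591 CPM, and pericyte markers to 1523 to 1855, 1079 to 1397 and 104 to 151 CPM. The share of counts from mitochondrial genes was 32.4% to 40.5% in GFPtotal 3–5, 45.3% to 49.0% in GFPtotal 1, 2, 6 and 35.1% to 45.7% in GFPlow. The part of these in the complement values was not tested.

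Leukocytes, epithelium and fat can express complement genes as well. The 15 leukocyte markers summed, again in this order, to 8.98 to 19.2, 4.05 to 6.68 and 4.51 to 16.4 CPM, most of it Cd68, and S100a8 and S100a9 were at 0 counts. Ptprc, which all leukocytes express, had at most 0.200 CPM in GFPtotal 3–5, 1.43 CPM in any GFPtotal library and 0.364 CPM in GFPlow. Csf1r had 0.491 to 0.931 CPM in GFPtotal 3–5 and at most 2.14 CPM in GFPlow. The macrophage gene Adgre1 had 0 counts in GFPtotal and 3 in GFPlow, and 14 of the 15 had a mean below 1 CPM. The 12 epithelial markers summed to 9.72 to 14.8, 3.74 to 7.58 and 9.33 to 14 CPM, and the mesothelial sum was 68.6 to 80.5, 43.2 to 47.0 and 71.6 to 110 CPM, nearly all of it Wt1, which stromal cells of the uterus also express. The part of such cells in the complement values was not tested.

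**Figure D3:**
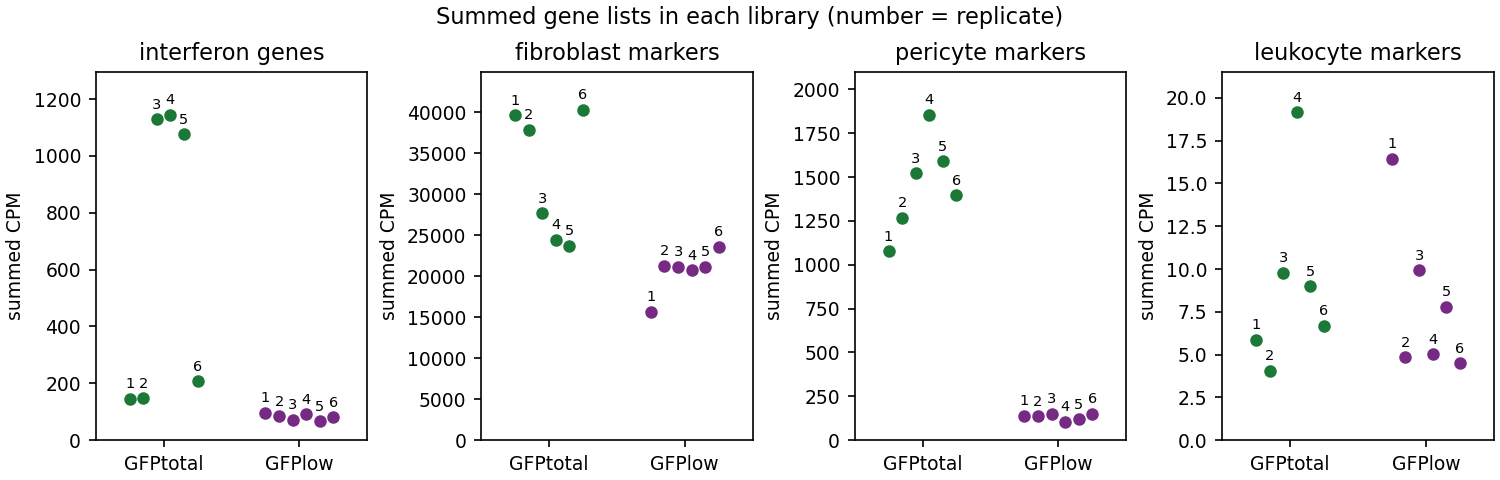
Summed CPM (vertical axis from 0) of the interferon genes and of fibroblast, pericyte and leukocyte markers in each library, numbered by replicate. GFPtotal 3–5 lie at 1076 CPM or above for the interferon genes and the other 9 libraries at 208 or below. The interferon genes were chosen because earlier results of these data showed them to differ between libraries.

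To set different genes side by side, levels were divided by the length of all annotated exons of a gene. That length is a rough measure, since it can exceed that of the expressed transcript. For C1s1 and C2 it includes the shared bases whose reads are missing. Per kilobase of exon Cd55 was first in GFPlow at 108 ± 24.0 CPM per kilobase, followed by C1s1 at 62.7 ± 12.4 and Serping1 at 44.2 ± 10.8 (SD, n = 6 each). In GFPtotal C1s1 (108 ± 43.5 CPM per kilobase), Serping1 (100 ± 37.7) and Cd55 (80.7 ± 37.8) had means within each other's spread, but their order differed within the group. In GFPtotal 1, 2, 6 Cd55 stood at 114 to 116 CPM per kilobase, above C1s1 (67.3 to 69.7) and Serping1 (60.3 to 75.1), as in GFPlow. In GFPtotal 3–5 Cd55 stood at 37.2 to 52.6, below C1s1 (132 to 161) and Serping1 (108 to 151). C3 (19.7 ± 14.5 in GFPtotal and 6.83 ± 6.06 in GFPlow) and C1ra (13.3 ± 6.13 and 5.84 ± 1.41) followed, again within each other's spread. Cd59a (5.05 ± 4.11 and 3.49 ± 2.19), C4b (2.20 ± 1.89 and 0.546 ± 0.706) and C2 (0.729 ± 0.712 and 0.172 ± 0.109) were lower, and Cfd was last. C3 was above C1ra on average in both groups, but C1ra was the higher in 4 of 6 GFPlow libraries and in 2 of 6 GFPtotal libraries. Without GFPlow 3 the GFPlow means were 6.00 CPM per kilobase for C1ra and 4.4 for C3. Below these 2 genes the means of both groups had the same order. For C1ra, C1s1, C2 and C4b the levels carry the uncertainty of shared sequence given above.

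**Figure D4:**
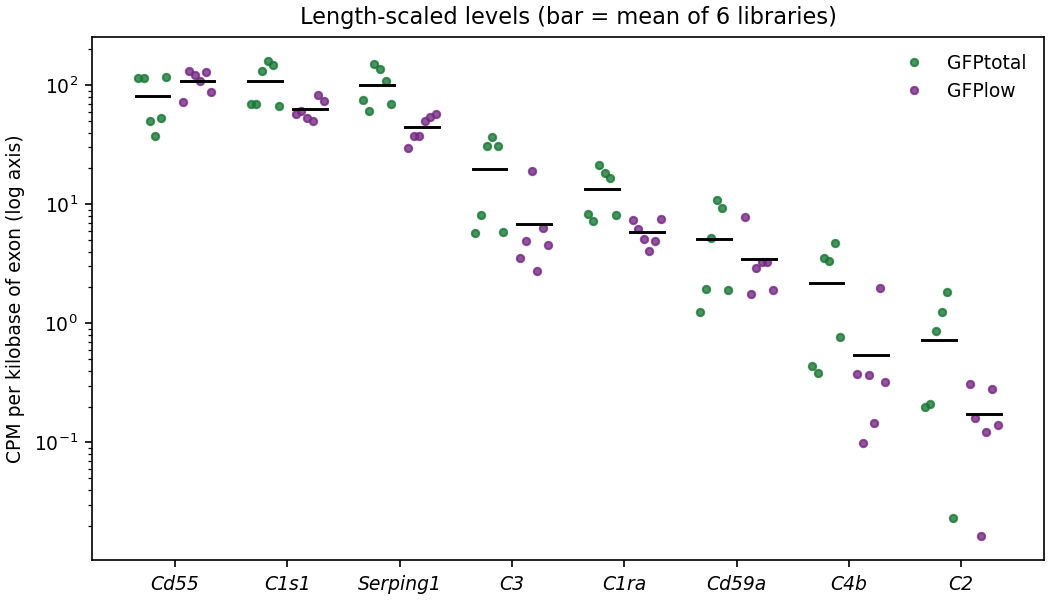
Length-scaled levels (CPM per kilobase of exon, logarithmic axis) of 8 genes in each library, with the mean of 6 libraries as a bar. Cd55, C1s1 and Serping1 form the top group in both sorts, and C4b and C2 the bottom.

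The rest of the system was followed over 49 other complement genes, of which 15 passed the filter on low counts. Of the 15, 2 were called higher and 0 lower by edgeR's quasi-likelihood test, Cd93 among them, at a median log2 fold change of 0.04. Over all genes tested, 4.55% were called higher and 0.854% lower. Lower genes numbered 1 at an unadjusted p below 0.05, 0 by DESeq2 and 1 by limma-voom (Csmd2). Of those 49, 34 were not tested, and 5 had no counts in any library. The recognition subunits of C1 were nearly without counts: C1qa had 0 counts in all libraries, C1qb 7 and C1qc 13 over all 12, while the proteases that C1q activates were abundant. Of the lectin pathway, Mbl1, Mbl2 and Fcnb were at 0 counts.

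Cd93, a membrane receptor first described as a receptor for C1q and known from endothelium, averaged 16.3 ± 4.22 CPM over GFPtotal against 0.444 ± 0.406 CPM over GFPlow (SD, n = 6 each), and the groups did not overlap. Its log2 fold change of 5.19 (SE 0.63, edgeR adjusted p = 0.000122) was 5.20 without GFPtotal 3–5, and GFPtotal 3–5 (10.3 to 19.9 CPM) lay amid GFPtotal 1, 2, 6 (12.3 to 21.0 CPM). Of the 11 endothelial markers, 7 had a mean below 1 CPM. Their sums were 43.5 to 61.8 CPM (GFPtotal 3–5), 34.3 to 54.8 CPM (GFPtotal 1, 2, 6) and 39.6 to 60.2 CPM (GFPlow), with Cldn5 at 0 counts, and their part in the Cd93 values was not tested. Kdr and Cdh5 had higher means in GFPlow (20.8 and 16.2 CPM) than in GFPtotal (11.2 and 5.08 CPM), and Pecam1 had 66 counts in GFPtotal and 17 in GFPlow.

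Among other abundant complement genes, Cr1l, Cd46, Cr2, Cfp and C1qbp did not pass the test. Cr1l, the rodent regulator Crry, stood at 124 ± 15.1 and 121 ± 25.4 CPM (SD, n = 6 each; log2 fold change 0.04, SE 0.16, edgeR adjusted p = 0.919). Cd46, of which 14.2% of exonic bases are shared with antisense genes, had a log2 fold change of 0.65 (adjusted p = 0.103), and the receptor gene Cr2 one of 0.64 (adjusted p = 0.212). Properdin (Cfp), which stabilises the alternative convertase, was at 9.29 ± 5.17 and 7.85 ± 1.23 CPM, and C1qbp, a mitochondrial protein that binds C1q, at a log2 fold change of −0.27 (adjusted p = 0.681). The difference of Cfp was 0.24 (adjusted p = 0.774).

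**Figure D5:**
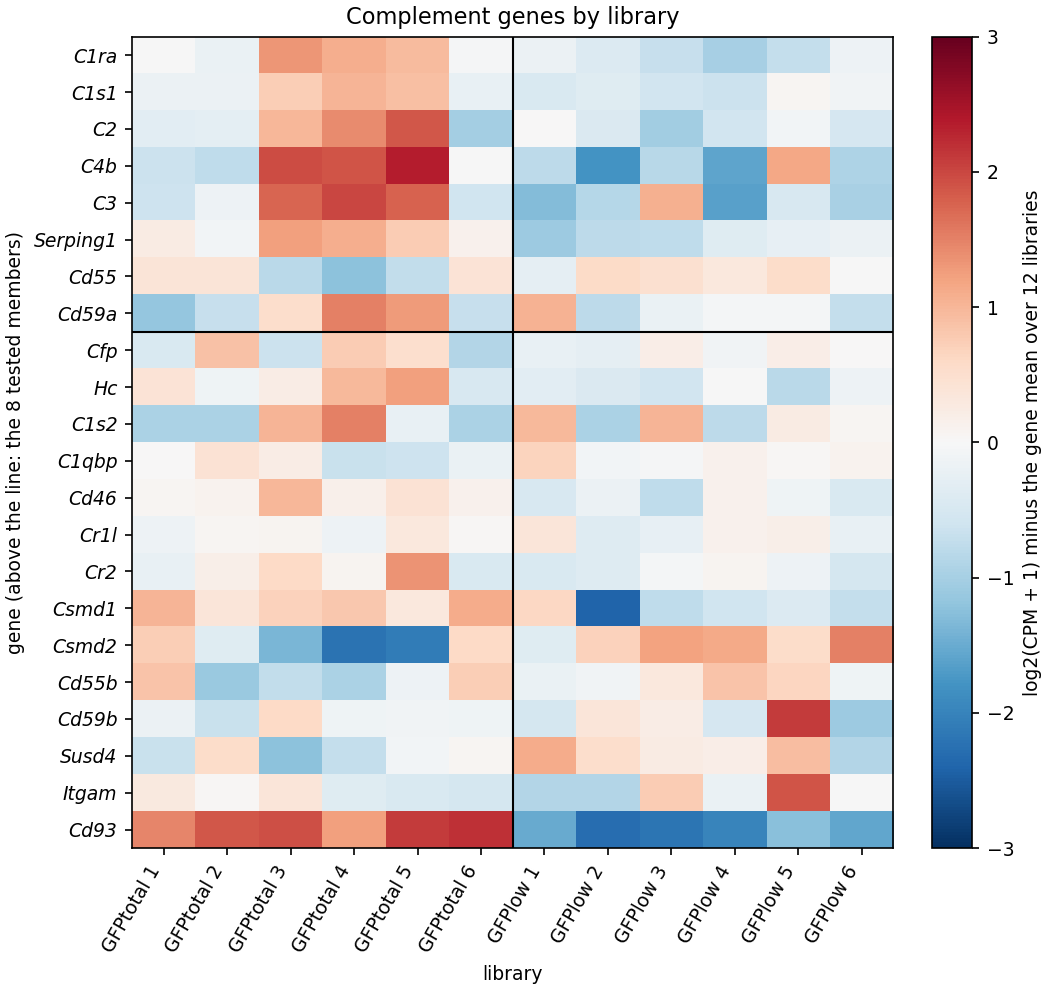
Log2(CPM + 1) of 22 tested complement genes in 12 libraries, centred on each gene's mean, with the 8 tested members above the line. The columns GFPtotal 3–5 are red in the first 6 rows and blue in Cd55, while Cd93 is red in all 6 GFPtotal columns.

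Masp1, C7 and Vtn are named after their values were seen. Masp1, a protease of the lectin pathway, had 134, 208 and 85 counts in GFPtotal 3–5 and at most 8 in any other library, and C7, a subunit of the membrane attack complex, had 157, 133 and 99 counts there, 42, 6 and 1 in GFPtotal 1, 2, 6 and at most 2 in GFPlow. Neither passed the filter on low counts. In the fit with no low-count filter edgeR called both (log2 fold changes of 6.09 and 6.64, adjusted p = 0.0215 and 0.000265). It also called Vtn (vitronectin, also on the pericyte list, 94 counts in GFPtotal and 1 in GFPlow, adjusted p = 0.0106). These fitted sizes depend on the prior count, since several GFPlow libraries were at 0. That fit called 865 genes in all. Masp1, C7 and Vtn were picked because they were called there, so their p-values add no support.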

How the data were processed

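The deposited values are raw counts of fragments. They were made by the authors, per the file headers, with featureCounts 1.6.4 on paired reads over exons, summed by gene of Ensembl release 84 on GRCm38, at a mapping quality of at least 10 and without strand. The submitters' processing notes name cutadapt, SAMtools and GRCm38. No aligner is named there. The count table of the series equalled the single files in 12 of 12 libraries.

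Symbols were matched by Ensembl identifier for 47224 of 47729 genes (GENCODE M21). Low counts were removed by filterByExpr, libraries were TMM-scaled, and genes were tested with edgeR 4.0.16 in R 4.3.3 (quasi-likelihood, robust, two-sided, no covariate), with the Benjamini-Hochberg adjustment at 0.05. The SE is the log2 fold change divided by the square root of F. Alternatives used DESeq2 1.42.0 and limma 3.58.1 (voom). The fit was tested on simulated data. Log2 CPM used a prior count of 2, and the heat map log2(CPM + 1). No label ties a library to a mouse, so p-values reflect only how much these libraries vary. Within a group no pair of libraries agreed within sampling noise (chi-square per degree of freedom at least 19.5). Intervals and limits on low counts cover counting error only.

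Members, gene lists and alternatives were chosen with earlier results of these data known. Genes named with values are the 9 members, the called and the 6 most abundant other complement genes, the 2 genes most like each member, abundant or defining markers, and those said to be chosen afterwards. One other complement gene is not reported here. The order of C1ra and C3 without GFPlow 3 and the levels relative to total counts were added after seeing the data.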

Additional observations from a re-analysis of the deposited data

Results flagged for a closer look

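In 10 complement genes (the 8 tested members and 2 others, Cd93 among them), each group of 6 libraries was checked for a library far from the others, by the gap to its nearest neighbour over the whole range with Dixon's 95% limit. The check used CPM on the linear scale and was not run on log2 CPM. Chance flags about 1 in 20 groups of normally distributed values, a form that was not tested here. Values skewed upward would give high flags more often. Of 20 groups 3 were flagged, each in GFPlow and each with a high library. GFPlow 3 had C3 at 97.5 CPM, with the next library at 32.6 CPM. GFPlow 5 had C4b at 11.2 CPM, with the next at 2.15 CPM. GFPlow 1 had Cd59a at 14 CPM, with the next at 5.97 CPM. They are 3 different libraries, and none of the 3 is GFPlow 6, whose header name differs from its title. No GFPtotal library was flagged. For most of these genes 3 of the 6 GFPtotal libraries lay together on each side, but not for Cd93.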

How the results depend on the processing

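Each result was recomputed under 19 other settings, except that C2 did not pass the filter without GFPlow 5 and has 18. The number of the 9 genes called was 2 with all libraries, 4 with DESeq2 (all higher; C1s1 and C4b were added), 1 when scaled by total counts alone, 1 with the replicate block and 0 without GFPtotal 3, 4 and 5; no gene was called lower under any of the 20 fits, the first one included. Leaving out 1 library gave 1 to 3 called. The number of other complement genes called was 5 with no low-count filter and 4 with limma-voom (among them Cd93, Csmd1 at 1.59 and Csmd2 at −1.92). The number of all genes called was 785 at first (5.41% of those tested) and 1384 with DESeq2. It was 865 with no low-count filter, 989 with limma-voom and 295 without GFPtotal 3, 4 and 5. Scaled by total counts alone it was slightly below 785. With 1 library left out it was 467 to 970. The lowest were without GFPtotal 3 (467) and GFPtotal 4 (521), the highest without GFPtotal 2 (970). These are counts and not shares, since the number of genes tested differed between fits. Whether complement genes gained or lost calls more than other genes did cannot be judged from them. Total library size moved the median of all genes by −0.07. Without GFPtotal 3, 4 and 5 the sign turned for C2 (−0.27), C3 (−0.0762), C4b (−0.0607), Cd55 (0.0619) and Cd59a (−1.06), and the cause was not tested. Replicate numbers are not tied to mice. Deviations of same-numbered libraries correlated at −0.139 to 0.0892, 0 of 6 pairs over 0.1, and 2 of 6 numbers correlated best with their own. With the replicate number as a block, C1ra was not called (1.09, adjusted p = 0.105) and 582 genes were called in all. Cd93 was called under all 19. Depth limits C2, Cfd and the genes under the filter.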
